A study of Mus musculus with 15 samples.

Results

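The microRNAs (miRNAs) miR-101a and miR-101b were followed in liver grafts of mice, from the first week after transplantation to day 100. They are the 2 members of 567 mouse miRNAs on the array, found as the rows named mmu-miR-101a and mmu-miR-101b, and they were chosen by their measured values: their signal was lower in allografts than in syngeneic grafts and was still lower on day 100. All differences of the members' levels between groups are therefore given below as a description, with no test.

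Total RNA of 15 grafts was labeled with Cy3 and measured in 1 color on Agilent mouse miRNA arrays, with a separate array for each graft, in 5 groups of 3 male mice. The allografts were livers of B10.BR (H2-Kk) donors in B10.D2 (H2-Kd) recipients, given no immunosuppressant, and were removed on day 5, day 8, day 14 or day 100. The reference group was the syngeneic graft removed on day 5, a transplant between genetically matched mice. The labels give the allogeneic strain pair for the syngeneic arrays too, so these were assigned by their titles, and their own strain is not given in the sources used here. The only syngeneic time was day 5, so from day 8 on the type of graft and the time since surgery cannot be told apart in a comparison with it. The ages of the mice are not given in the sources used here. Grafts are bulk tissue, in which fewer cells of a type and less RNA per cell cannot be told apart.

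A miRNA is cut from a hairpin precursor and guides a silencing complex to messenger RNAs, mainly through its seed, bases 2 to 8 from its 5′ end. miR-101 is known for repressing Ezh2, the histone methyltransferase of the Polycomb repressive complex, and Ptgs2, the inducible cyclooxygenase that makes prostaglandins in inflammation. In liver it is abundant in normal tissue and known to be reduced in hepatocellular carcinoma.

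The mature strands are shown to make plain how alike the members are, 5′ to 3′ with the seed in capitals, as RefSeq gives them on GRCm38.p6. The star-less array names predate the -3p and -5p endings and were read as the 3p strands. miR-101a-3p lies at chr4:101346957-101346977 on the minus strand, within the span of the long noncoding RNA gene E130102H24Rik. miR-101b-3p lies at chr19:29135338-29135356 on the plus strand, within the span of Rcl1, a gene of ribosomal RNA processing. Whether these spans are exon or intron at the hairpins was not looked up.
miR-101a-3p: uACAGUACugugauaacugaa
miR-101b-3p: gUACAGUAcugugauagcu
miR-101c: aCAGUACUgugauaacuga
miR-144-3p: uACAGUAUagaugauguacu

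The RefSeq form of miR-101b-3p starts 1 base earlier than that of miR-101a-3p, so the capitals cover the same stretch shifted by 1 base. Set without gaps against the Mir101b hairpin, miR-101a-3p was equal at 20 of 21 bases, and the substitution was A16G, counted from 1 at the 5′ end of miR-101a-3p. miR-101c, at chr9:3038680-3038698 on the minus strand, is equal to 19 bases inside miR-101a-3p and has no probe under that name on the array. miR-144-3p shares the first 7 bases of miR-101a-3p and departs from it at C8U, within the seed. Probe sequences were not analysed here. Whether a probe of 1 member also takes up the other, or miR-101c, was not tested, and the separate values of the members are uncertain to that extent.

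The hairpins are shown with the 3p strand in capitals, since the passenger strand on the other arm was measured for miR-101a.
Mir101a, chr4:101346945-101347027, minus strand: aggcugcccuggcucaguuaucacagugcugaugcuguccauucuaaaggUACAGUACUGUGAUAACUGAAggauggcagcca
Mir101b, chr19:29135279-29135375, plus strand: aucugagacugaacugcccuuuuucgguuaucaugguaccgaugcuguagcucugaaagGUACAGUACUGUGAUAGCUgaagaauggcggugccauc

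The passenger strand miR-101a* was not well above background on any array. It has 4 probes of 5 spots each, 0% of which were well above background on the 15 arrays. Its intensity summed over the probes lay between -105 and 2.29, so no difference between groups is given for it.

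Between 60 and 115 miRNAs were detected per array. A miRNA counted as detected when 1 of its probes had a share of spots well above background of 0.5 or more. Replicate 1 of day 100 stood apart. Its additive error, the software's estimate of background noise, was 13.1 against 2.67 to 3.66 on the other 14 arrays. The median intensity of the probes that no array detected was -22.8 there and between -1.42 and -0.32 on the others. The members' differences of day 100 from the syngeneic grafts and from day 14, and the difference between the members, are given with and without it. Their change from day 5 to day 100, the miRNAs most like them and the lists of other miRNAs on day 100 are given only with it.

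miR-101a and miR-101b were detected on all 15 arrays, each by 2 probes of 10 spots. Their intensity is the sum over both probes of the mean background-subtracted spot intensity, before any scaling between arrays. For miR-101a it read 162, 186 and 296 in replicates 1, 2 and 3 of the syngeneic grafts. The allografts read 263, 256 and 148 (day 5), 138, 131 and 161 (day 8), 101, 152 and 145 (day 14) and 121, 85.5 and 144 (day 100). Before scaling, the allografts of day 8, day 14 and day 100 were thus below all 3 syngeneic grafts, although the highest of day 8 lay just under the lowest syngeneic graft, and those of day 5 overlapped them. For miR-101b the syngeneic grafts read 325, 319 and 500, and the allografts read 371, 398 and 221 (day 5), 233, 211 and 267 (day 8), 122, 192 and 174 (day 14) and 250, 128 and 200 (day 100). The allografts of day 5 again overlapped the syngeneic grafts, and those of the later days did not.

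Arrays differed in overall brightness. The 52 miRNAs that every array detected served as the yardstick, and their 75th percentile on an array was the divisor of its intensities. This divisor lay between 395 and 616 on the syngeneic arrays and between 457 and 1018 on those of allografts, so the scaling lowers the allografts against the syngeneic grafts. The log2 of the scaled signal is the level used from here on.

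The syngeneic grafts had miR-101a levels of -1.67, -1.09 and -1.06. Allografts had levels of -1.75, -1.89 and -1.63 on day 5, -2.38, -2.57 and -2.36 on day 8, -3.03, -2.30 and -2.81 on day 14, and -3.05, -2.59 and -2.42 on day 100. Replicate 1 of the syngeneic grafts was the lowest of its group and overlapped day 5, and all arrays of day 8, day 14 and day 100 lay below all syngeneic and all day 5 arrays. Its mean was -1.27 ± 0.34 (SD, n = 3) in the syngeneic grafts, and -1.76 ± 0.13 (day 5), -2.44 ± 0.12 (day 8), -2.71 ± 0.37 (day 14) and -2.69 ± 0.33 (day 100) in the allografts. In the order of the means, the syngeneic grafts and day 5 did not differ beyond their spread, nor did day 8, day 100 and day 14 among themselves.

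The syngeneic grafts had miR-101b levels of -0.66, -0.31 and -0.30. Allografts had levels of -1.26, -1.25 and -1.05 on day 5, -1.62, -1.88 and -1.64 on day 8, -2.75, -1.97 and -2.55 on day 14, and -2.00, -2.01 and -1.95 on day 100. No allograft array overlapped the syngeneic grafts, and each group from day 5 to day 14 lay wholly below the one before it. The arrays of day 100 also lay below all arrays of day 8. Its mean was -0.42 ± 0.21 in the syngeneic grafts, and -1.19 ± 0.12 (day 5), -1.71 ± 0.15 (day 8), -2.42 ± 0.40 (day 14) and -1.99 ± 0.03 (day 100) in the allografts. Day 14 and day 100 overlapped, since replicate 2 of day 14 was as high as the arrays of day 100.

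**Figure D1:**
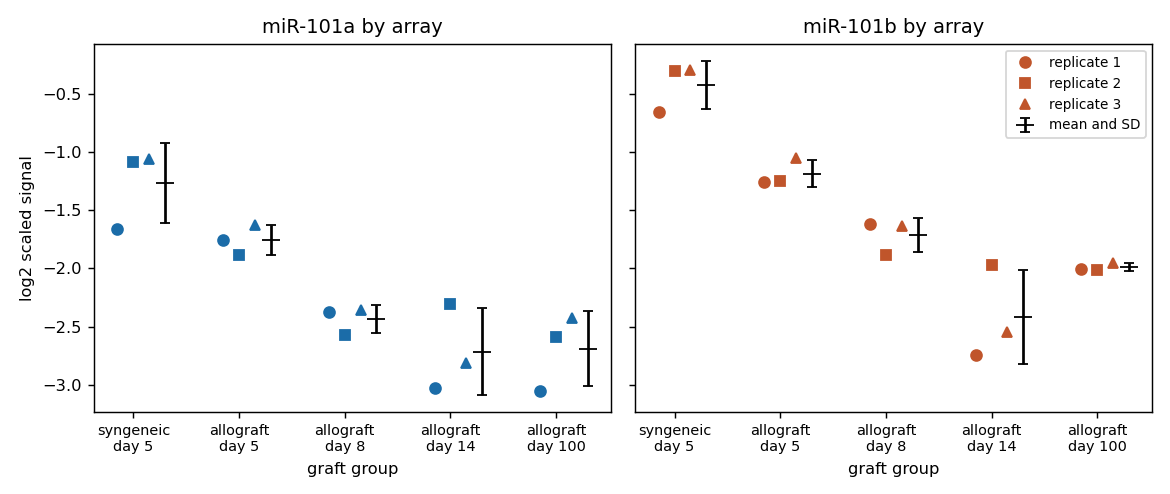
Level (log2 scaled signal, vertical axis) of miR-101a and miR-101b on each of the 15 arrays by graft group, with the group mean and SD of 3 arrays beside the points. From day 8 the group means of miR-101a lie between -2.71 and -2.44, and their arrays overlap. The day 100 arrays are on another slide than those of day 8 and day 14, so no plateau is read from these means. With the slide as a block, the change of miR-101a from day 14 to day 100 was -0.29. The mean of miR-101b is lowest at day 14, -2.42.

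As differences of means from the syngeneic grafts, with the SE of the limma fit to all 15 arrays, miR-101a was 1.40-fold lower on day 5 (log2 -0.49 ± 0.22). It was then 2.25-fold (day 8, -1.17), 2.72-fold (day 14, -1.45) and 2.67-fold lower (day 100, -1.42). The SE was the same for each day. miR-101b was 1.70-fold lower on day 5 (log2 -0.76 ± 0.19), and then 2.45-fold (day 8, -1.29), 3.99-fold (day 14, -2.00) and 2.96-fold lower (day 100, -1.57). The median log2 difference of the 103 miRNAs tested went from 0.12 (day 5) and 0.14 (day 8) to 0.07 (day 14) and 0.00 (day 100). The share of these 103 with all 3 allografts below all 3 syngeneic grafts was 8.74% (day 5), 18.4% (day 8), 21.4% (day 14) and 16.5% (day 100). Both members were among them on day 8, day 14 and day 100, and only miR-101b on day 5. The choice of the members used these contrasts, and nothing is read from these counts.

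The size of these differences depended on the scaling. With no scaling, the log2 difference of miR-101a from the syngeneic grafts was 0.05 on day 5, and then -0.54, -0.67 and -0.86, and that of miR-101b was -0.22, -0.66, -1.22 and -1.01 over the same 4 times. The median of all miRNAs tested was then 0.54, 0.69, 0.71 and 0.33 higher than in the syngeneic grafts. Without replicate 1 of day 100, the day 100 difference was -1.24 for miR-101a and -1.56 for miR-101b.

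**Figure D2:**
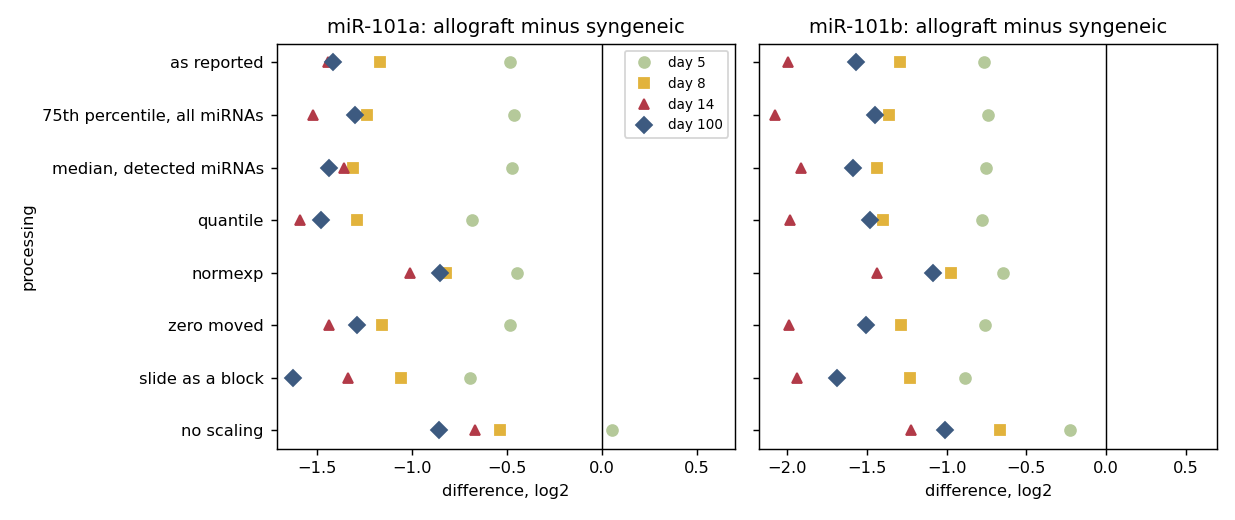
Difference of the group means, allograft minus syngeneic (log2, horizontal axis), for miR-101a and miR-101b under 8 ways of processing (vertical axis), 1 symbol per allograft day. All values of day 8, day 14 and day 100 lie below 0, and day 5 of miR-101a lies at 0.05 with no scaling.

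The course among the allografts themselves is likewise a description, since these arrays entered the choice of the members. From day 5 to day 14 the change in level was -0.96 ± 0.22 (SE) for miR-101a, or 1.94-fold lower. It was -1.23 ± 0.19 for miR-101b, or 2.35-fold lower. All 3 arrays of day 14 were below all 3 of day 5 for both members. The share of all miRNAs tested that separated in this way between allograft days was not counted. Nothing is therefore read from a lack of overlap between allograft days, here, above or below. Day 5 and day 14 were hybridized on different array slides. A block for the slide, which only the syngeneic arrays can estimate, gave changes of -0.64 (SE 0.40) for miR-101a and -1.05 for miR-101b.

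From day 8 to day 14, on the same slide, the level of miR-101b was 1.63-fold lower (log2 -0.71 ± 0.19), with no overlap of the arrays. That of miR-101a differed by -0.28 ± 0.22, and its arrays overlapped. From day 5 to day 8, on different slides, the changes were -0.68 ± 0.22 for miR-101a and -0.53 ± 0.19 for miR-101b. All arrays of day 8 lay below all arrays of day 5 for both members. With the slide as a block these changes were -0.36 (SE 0.40) for miR-101a and -0.34 for miR-101b.

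From day 14 to day 100, miR-101a differed by 0.03 ± 0.22 (SE) and miR-101b by 0.43 ± 0.19. The groups overlapped for both, and these days lie on different slides. With the slide as a block the changes were -0.29 and 0.25, and without replicate 1 of day 100 they were 0.21 and 0.44. Day 5 and day 100 lie on the same slide, and on day 100 miR-101a differed from its day 5 mean by -0.93 and miR-101b by -0.80 (log2), with no overlap of the arrays.

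The probes of each member were read separately. On day 14, the probes A_54_P2268 and A_54_P4365 of miR-101a were 2.75-fold and 2.70-fold lower than in the syngeneic grafts, and the probes A_54_P2593 and A_54_P2594 of miR-101b were each 4.0-fold lower. On that day the probes of a member differed less from each other than the members did. On day 100 the probes of miR-101a were 2.79-fold and 2.59-fold lower, but those of miR-101b were 3.61-fold and 2.82-fold lower. The dimmer probe of miR-101b had an intensity of 71.6 to 109 in the syngeneic grafts and 27.1 to 41.8 on day 100, and the brighter one 248 to 391 and 101 to 215.

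The disagreement on day 100 moved with replicate 1. The intensity of the brighter probe of miR-101b was 3.30 to 3.81 times that of the dimmer one on 14 arrays and 6.02 times on this array. For miR-101a the ratio was 1.08 to 1.17 on 14 arrays and 1.38 on this one. There, A_54_P2268 and A_54_P2593 had 0% and A_54_P4365 66.7% of spots well above background, whereas every member probe had 100% on every other array. When the zero of each array was moved to the median of the probes never detected, the ratios on this array came to 4.06 and 1.26, and its level of miR-101a went from -3.05 to -2.68. This alternative was chosen after seeing the data. The differences of day 100 from the syngeneic grafts were then -1.29 for miR-101a and -1.51 for miR-101b.

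**Figure D3:**
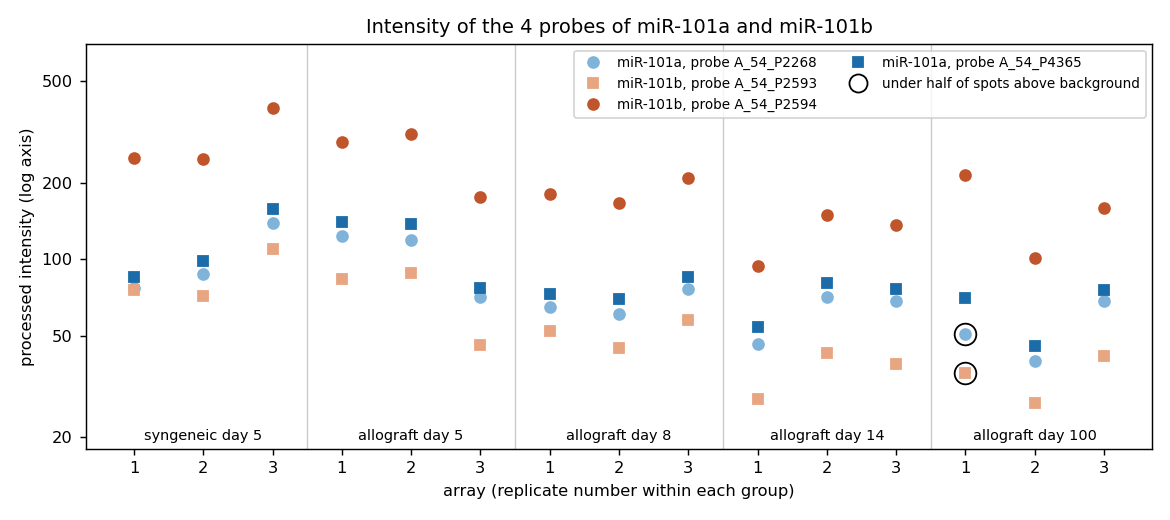
Processed intensity (vertical log axis) of the 4 probes of miR-101a and miR-101b on the 15 arrays, ordered by group and replicate, before scaling. Rings mark the probes A_54_P2268 and A_54_P2593 on replicate 1 of day 100, the only array on which they were not well above background.

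Whether the members moved apart was asked with the level of miR-101b minus that of miR-101a on each array, a value that no scaling by 1 factor per array can change. Its own size has no meaning, since the members have different probes, so only its change between groups is read. Syngeneic grafts had differences of 1.00, 0.78 and 0.76. Allografts had differences of 0.50, 0.63 and 0.58 on day 5, 0.76, 0.69 and 0.72 on day 8, 0.28, 0.33 and 0.27 on day 14, and 1.05, 0.58 and 0.47 on day 100. The 3 arrays of day 14 were the lowest of all, with 0.33 at most against at least 0.47 on the other 12 arrays. They were also close together, at 0.29 ± 0.04 (SD, n = 3). This grouping was noticed in the values and was not tested.

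Over the 12 allografts the mean differed by -0.27 from that of the 3 syngeneic grafts, with p = 0.0615 in an exact two-sided permutation test over 455 arrangements (adjusted p = 0.125 over 5 comparisons). The choice of the members used the levels on these arrays, though not the gap between the members, and the test takes all allograft days as 1 group. Its p is therefore no independent support. When replicate 1 of day 100 was left out the change was -0.32, with p = 0.00824 in the same exact test. When instead replicate 1 of the syngeneic grafts was left out it was -0.20 (exact p = 0.253), so the outcome depends on both arrays. Taken by time, the change was -0.28 (day 5), -0.12 (day 8), -0.55 (day 14) and -0.15 (day 100). With 3 arrays against 3 the smallest p that the exact test allows is 0.1, which day 5, day 8 and day 14 reached (adjusted p = 0.125), and on day 100 the exact p was 0.5. With 1 array left out, the change on day 8 lay between -0.17 and -0.044, the latter without replicate 1 of the syngeneic grafts, and the exact p went up to 0.4. In the same way the change on day 100 was -0.32 with replicate 1 of that day left out and -0.031 with replicate 3 of that day left out. It was -0.067 with replicate 1 of the syngeneic grafts left out and -0.086 with replicate 2 of day 100 left out.

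**Figure D4:**
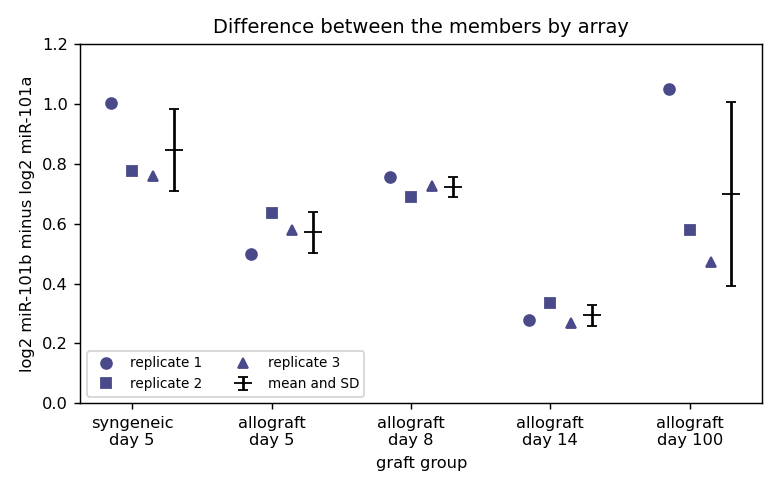
Level of miR-101b minus that of miR-101a (log2 scaled signal, vertical axis) on each array by graft group, with the mean and SD of 3 arrays. The arrays of day 14 lie between 0.27 and 0.33, below the other 12, and replicate 1 of day 100 lies at 1.05.

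Within groups the members deviated together. The deviations from the group means over the 15 arrays had a Pearson r of 0.83 (p = 0.00193) and a Spearman rho of 0.81 (p = 0.00360) in exact permutation tests over the 7776 orders within groups. This was the only relation tested. Without replicate 1 of day 100 and replicate 1 of the syngeneic grafts, the 2 arrays farthest from the median, r was 0.97 (exact permutation p = 0.00810). The members share the brightness and the scaling of each array, and the probes of 1 may take up the other. The part of these in r was not tested, and no such r was computed for other pairs of miRNAs. These arrays also entered the choice of the members, though not through the deviations within groups. The p is therefore not read as a link between the members beyond what the arrays share.

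The miRNAs whose levels over the 15 arrays were most like those of the members are named by their Pearson r, which is given as a description. The points share arrays, scaling and groups. For miR-101a these were miR-30e (r = 0.89), miR-29c (0.89), miR-30a (0.84), miR-192 (0.84) and miR-720 (0.78), of the 101 tested besides the members, whose median r was -0.09. For miR-101b they were miR-192 (0.93), miR-29c (0.90), miR-30a (0.89), miR-30e (0.86) and miR-194 (0.84). The r between the members was 0.95, above all of these. miR-30a and miR-30e belong to 1 seed family, miR-29c is known for repressing collagens, and miR-192 and miR-194 are abundant in liver. miR-720, since recognized as a fragment of a transfer RNA, had a log2 difference from the syngeneic grafts of -4.01 on day 8 and -2.06 on day 100.

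On day 100 these miRNAs differed in how close they were to the syngeneic grafts. The log2 differences on day 14 and day 100 were -0.97 and -0.43 for miR-192, and -0.99 and -0.48 for miR-194. They were -1.13 and -0.98 for miR-30e, -0.77 and -0.67 for miR-29c, and -0.82 and -0.66 for miR-30a. In miR-30e, miR-29c and miR-30a, as in miR-101a, the means of day 14 and day 100 differed by at most 0.16.

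**Figure D5:**
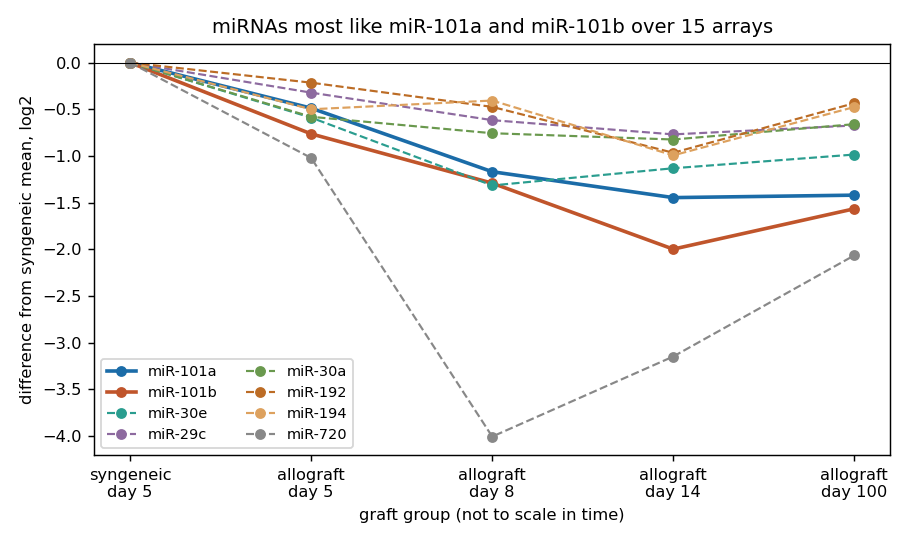
Difference of group means from the syngeneic grafts (log2, vertical axis) for miR-101a, miR-101b and the 6 miRNAs most like them over 15 arrays, by graft group (horizontal axis, not to scale in time). On day 100 miR-101a and miR-101b, which were chosen for being low then, are at -1.42 and -1.57. They lie between miR-720 at -2.06 and miR-30e at -0.98, and miR-192 and miR-194 are at -0.43 and -0.48.

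Of 7 miRNAs known to repress Ezh2 or Ptgs2, 6 were on the array under the names searched and 3 were tested. In the contrast of day 14 with the syngeneic grafts, 18.4% of all miRNAs were called lower and 27.2% were called higher. There miR-26b, which also represses Ezh2 and Ptgs2, differed by -0.74 (limma adjusted p = 0.00411). miR-26a, of the same seed family, differed by -0.20 (limma adjusted p = 0.330) and miR-214, a repressor of Ezh2 in muscle, by 0.32 (limma adjusted p = 0.381). On day 14 miR-26b was the 1 member of this list called, and 0 were called lower with no scaling, with the 75th percentile over all miRNAs or with the methods' t-test after adjustment. On day 100 miR-26b was 0.14 higher (limma adjusted p = 0.568). miR-138 and miR-124 were detected on 0 arrays and miR-143 on 5, and these were not tested. miR-144, which shares the leading bases of miR-101a, was detected on 10 arrays. Its mean was 0.01 higher on day 14 (limma adjusted p = 0.989) and the day 8 difference was -1.57 (limma adjusted p = 0.0183). The day 8 mean of miR-144 was -4.90, near the floor of -5.21, the lowest value a level could take. That of miR-214 in the syngeneic grafts was -5.14, and it was detected on 11 arrays. The sizes of these 2 differences thus depend on the floor.

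The hepatocyte list was lower on day 14, and its scaled signal summed over 6 miRNAs, mostly that of miR-122, is given by its range. Syngeneic grafts had 30.7 to 36.7, and allografts had 22.5 to 26.7 (day 5), 23.4 to 25.3 (day 8), 13.8 to 17.7 (day 14) and 24.1 to 28.7 (day 100). No allograft group overlapped the syngeneic grafts, and day 14 lay below all others. All 6 miRNAs were called lower on day 14 by limma, against 18.4% of all miRNAs tested. Their median was -0.98, against 0.07 over all miRNAs tested. miR-122, the main miRNA of hepatocytes, fell by 1.05 (limma adjusted p = 7.87e-05), and miR-148a by 1.19 (limma adjusted p = 7.87e-05). With no scaling 0 of the 6 were called lower on day 14. On day 100 the median of the list was -0.34, and 2 of the 6 were called lower, miR-192 and miR-194, against 14.6% of all miRNAs tested. The part of the hepatocyte list in the values of miR-101a and miR-101b was not tested.

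The leukocyte list was higher in the allografts of the first 3 times. Its summed signal over 8 miRNAs ranged from 0.714 to 1.78 in the syngeneic grafts. Allografts had 3.23 to 8.38 (day 5), 2.47 to 2.88 (day 8), 3.30 to 4.49 (day 14) and 1.25 to 1.66 (day 100). The groups of day 5, day 8 and day 14 lay above all syngeneic grafts, and day 100 was within their range. On day 14 all 6 tested miRNAs of the list were called higher by limma, against 27.2% of all miRNAs tested. Among them were miR-142-3p, a marker of blood cells, at 1.33 (limma adjusted p = 0.0224), and miR-223, of myeloid cells, at 2.38 (limma adjusted p = 7.89e-06). miR-342-3p was at 4.04, but it was detected on 12 arrays and its syngeneic mean of -5.06 lay near the floor of -5.21. miR-155, detected on 10 arrays, had its syngeneic mean at that floor. Both differences thus depend on where the floor was set. The filter also lets a miRNA in when 1 group alone detected it throughout, so one low in the syngeneic grafts can enter only through allografts where it is high. The count of 6 was in part fixed by this and is no support. With only the miRNAs that every array detected, 3 of the list were tested and 3 were called higher on day 14. miR-146b was detected on 2 arrays and was not tested. With normexp background correction 3 of the list were called higher on day 14. On day 100, 3 of the 6 were called higher, against 16.5% of all miRNAs tested. miR-150, a marker of mature lymphocytes, was detected on 0 arrays. The part of leukocyte RNA in the values of the members was not tested.

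The erythroid and stromal lists were thinly measured. The summed erythroid signal was 0.597 to 1.21 in the syngeneic grafts and 1.82 to 2.48 on day 14, which did not overlap. Of the 2 tested, miR-451 was 1.55 higher on day 14 (limma adjusted p = 0.00232) and miR-144 is given above, while miR-486 was detected on 1 array. The summed signal of the endothelial and stromal list was 0.834 to 1.04 in the syngeneic grafts and 1.02 to 1.06 on day 14, which overlapped. On day 14, neither miR-126-3p (0.24, limma adjusted p = 0.125) nor miR-214 passed, and miR-145 was detected on 0 arrays.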

How the data were processed

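The authors deposited each array's Agilent Feature Extraction output (version 9.5.1.1, per the file headers): background-subtracted, spatially detrended spot intensity, with no normalization between arrays, plus median spot and local background intensities, the software's total signal per miRNA, and flags for spots well above background and outliers. A deposited value table of the series was not used.

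Outlier-flagged and control spots were left out, spots were averaged per probe and probes summed per miRNA. The divisor of an array was the 75th percentile of the 52 miRNAs that every array detected. Scaled signals under 0.0270 (8.28% of tested values) were set to that floor before log2 was taken. A mouse miRNA entered the test if any group had it detected in each of its 3 grafts, which left 103, fitted with limma 3.58.1 in R 4.3.3, 1 mean per group over 15 arrays, with Benjamini-Hochberg adjustment within each comparison and a threshold of 0.05. The limma fit, and the exact test of the difference between the members as coded for the alternatives, were also checked on simulated data. The exact test of agreement was not. Python 3.11.15 with scipy 1.17.1, pandas 2.3.3 and numpy 2.4.6 did the rest. The number of arrays limits the precision.

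The members, lists and tests were chosen with earlier results of these data known. A planned limma test of the members between allograft days is not reported, since those arrays entered the choice of the members, and the fit gives their differences and SE only. The miRNAs named were the members, the passenger strand, the lists, and the 5 tested miRNAs most correlated with each member. Labels number 3 mice per group, and no arrays were copies of each other. Slides were taken from the file headers: 1 slide held day 8, day 14 and 2 syngeneic arrays, and the other the rest. A list by base composition was void, since only 12 of the 103 names (11.7%) matched a RefSeq mature name. miR-199a-3p was not found under that name on the array.

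Alternatives were other scalings (none, median, quantile, 75th percentile over all miRNAs), the brightest probe, the software's total signal, normexp (offset 50) on median intensities, a floor divided by 4, other filters, only the groups compared, trend and robust moderation, the methods' t-test, slide and replicate blocks, and each array left out. Added after seeing the data were a moved zero and leaving out day 100.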

Additional observations from a re-analysis of the deposited data

How the results depend on the processing

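The differences from the syngeneic grafts kept their direction under all alternatives except 1. With no scaling, the day 5 difference of miR-101a was 0.052, and those of day 8, day 14 and day 100 were -0.54, -0.67 and -0.86. For miR-101b they were -0.22, -0.66, -1.22 and -1.01 on the 4 days. With normexp background correction, miR-101a was at -0.82, -1.01 and -0.85 on day 8, day 14 and day 100, and miR-101b at -0.98, -1.43 and -1.08. With the slide as a block, the change of miR-101a from day 14 to day 100 was -0.29. Within the slide of day 8 and day 14, miR-101a and miR-101b differed from its 2 syngeneic grafts by -1.06 and -1.23 on day 8. On day 14 they differed by -1.34 and -1.94. On the other slide the differences were -0.70 and -0.89 on day 5, and -1.63 and -1.69 on day 100. That slide held only 1 syngeneic graft, replicate 3, which had the highest level of both members in its group. Those values thus rest on a single reference graft. The cause of these shifts was not tested.

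Leaving out 1 array at a time gave -0.69 to -0.38, -1.37 to -1.06, -1.65 to -1.29 and -1.62 to -1.24 for miR-101a on the 4 days, and -0.88 to -0.70, -1.41 to -1.21, -2.22 to -1.83 and -1.68 to -1.50 for miR-101b. In the same way the changes of miR-101a and miR-101b were -1.16 to -0.80 and -1.46 to -1.07 from day 5 to day 14, -0.48 to -0.12 and -0.93 to -0.54 from day 8 to day 14, and -0.75 to -0.61 and -0.57 to -0.44 from day 5 to day 8.

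Between day 5, day 8 and day 14 no change turned its direction, whereas that of miR-101a from day 14 to day 100 lay between -0.29 and 0.23. With normexp the changes from day 5 to day 14 were -0.56 for miR-101a and -0.79 for miR-101b, that of miR-101a from day 5 to day 8 was -0.38, and that of miR-101b from day 8 to day 14 was -0.46. Blocked by slide, the change of miR-101a was -0.64 from day 5 to day 14 and -0.36 from day 5 to day 8, each with an SE of 0.40. With no scaling, miR-101b changed by -1.0 from day 5 to day 14, and with the median as the divisor by -0.48 from day 8 to day 14. Alternatives of the filter, the moderation and the test change p only and do not touch these values.

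The replicate numbers did not pair the arrays (correlation of deviations over 0.1 in 9 of 30 same-numbered pairs). A replicate block left every change of the members as it was, for example -0.71 for miR-101b from day 8 to day 14, and changed no count of the lists on day 14. The erythroid list had 0 called higher on day 14 with the methods' t-test after adjustment. The leukocyte list had 3 called higher with only the miRNAs detected on all arrays, where 3 of it were tested. miR-26b's list had 2 called lower without replicate 2 of the syngeneic grafts. The difference between the members over all allografts was called with normexp (-0.25, exact p = 0.00440) and the moved zero (-0.29, exact p = 0.0308). It lay between -0.32 and -0.20 with 1 array left out, with exact p from 0.00824 to 0.253. These p come from arrays that entered the choice of the members. On day 100 that difference was -0.15, and 0.0061 with quantile normalization. The agreement within groups passed under all its alternatives, with r between 0.77 and 0.95 with 1 array left out.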
